A study of Homo sapiens with 6 samples.

Results

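The members were the consecutive bins of 500000 bases into which human chromosome 11 (GRCh38) was divided from position 1, 271 bins in all. Each gene of the count table was placed in the bin that holds its annotated start, and the counts of the genes with at least 10 counts over the 6 libraries were summed. Of the 271 bins, 180 held such a gene and 154 reached 600 counts over the 6 libraries. These 154 bins formed the profile, out of 3383 bins of that depth on chromosomes 1 to 22 and X. The 180 bins together held 1411 such genes. Chromosome 11 was chosen by measured values of this series, the counts of its genes, which were lower as a whole in IRAIN over-expression than in control cells. For that reason the levels of its bins and genes in that contrast are given as a description. The numbers of its bins and genes that edgeR called in that contrast are descriptions too, and do not test the choice. Which bins departed from the level of their own chromosome, and how the chromosome's arms stood against each other, did not enter that choice.

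The libraries came from total RNA of K562, an established chronic myeloid leukaemia line with erythroid features. There were 3 IRAIN over-expression libraries and 3 control libraries, which GEO's labels call wild type and the columns of the count table call vector. IRAIN is a long noncoding RNA made antisense at the locus of IGF1R, a growth factor receptor. No vector, promoter or clone is described for the over-expression, and separate cultures are not mentioned for the replicates, so p-values measure only the spread between these libraries, which may be technical.

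IRAIN had 97, 94 and 106 counts in the IRAIN libraries, against 0, 0 and 1 in the control libraries. Library totals were 11558983 to 13303139 counts in the IRAIN group and 11893872 to 12237415 in the control group. The erythroid genes HBG1, GATA1, TAL1, KLF1 and TFRC stood at 64.6 CPM or more in every library (CPM, counts scaled to library size with TMM factors). The other-cell markers CD3E, CD2, MS4A1, DCN and KRT5 stood at 0.499 CPM or less, COL1A1 at 1.07 to 2.98 and EPCAM at 34.9 to 40.3 CPM. Mitochondrial genes took 2.95%, 3.33% and 3.09% of counts in the IRAIN libraries, against 2.78%, 2.598% and 2.46% in the control libraries, and the part of this difference in the profile was not tested. In bulk libraries, fewer cells of a type and less RNA per cell cannot be told apart.

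A profile of this kind adds up the RNA of neighbouring genes, so a bin with 1 abundant gene follows that gene and a crowded bin follows the average of its neighbours. Chromosome 11 carries the beta-globin genes and the imprinted H19 and KCNQ1OT1 genes near the tip of its short arm, the nuclear RNAs MALAT1 and NEAT1 and the cell cycle gene CCND1 on the proximal long arm, and ATM and KMT2A further out. It also holds large clusters of olfactory receptor genes, which are little used outside the nose.

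The bins farthest from the rest mostly followed a single gene, and the promoter windows of 4 such genes are shown so that a reader can see what starts there. They are RefSeq windows on GRCh38.p14, 1 per gene, read 5′ to 3′ on the gene's strand. Each runs from 250 bases before to 50 bases after a RefSeq start, which can differ from the annotated start used for the bins. The IL10RA window lies inside the gene as annotated there, which starts at 117986348. IL10RA and SESN3 carried bins that were higher in IRAIN cells, and CD44 and GDPD4 carried the lowest pair. Capitals mark the GC box letters GGGCGG or CCGCCC and the GATA letters AGATAA or TTATCT, searched on both strands.
IL10RA (chr11:117989695-117989994, plus strand): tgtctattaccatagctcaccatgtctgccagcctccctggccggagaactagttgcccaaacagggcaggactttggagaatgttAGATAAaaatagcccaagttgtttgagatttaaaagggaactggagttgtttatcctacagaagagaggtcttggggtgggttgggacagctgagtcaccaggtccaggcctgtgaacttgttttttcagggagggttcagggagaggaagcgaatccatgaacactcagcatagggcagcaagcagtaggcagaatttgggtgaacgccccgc
SESN3 (chr11:95232426-95232725, minus strand): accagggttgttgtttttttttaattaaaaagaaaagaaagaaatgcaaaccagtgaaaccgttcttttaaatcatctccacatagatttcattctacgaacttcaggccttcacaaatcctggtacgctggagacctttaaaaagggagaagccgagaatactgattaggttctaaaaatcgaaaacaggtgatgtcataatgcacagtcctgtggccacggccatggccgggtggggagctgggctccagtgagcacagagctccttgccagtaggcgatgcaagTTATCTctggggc
CD44 (chr11:35138921-35139220, plus strand): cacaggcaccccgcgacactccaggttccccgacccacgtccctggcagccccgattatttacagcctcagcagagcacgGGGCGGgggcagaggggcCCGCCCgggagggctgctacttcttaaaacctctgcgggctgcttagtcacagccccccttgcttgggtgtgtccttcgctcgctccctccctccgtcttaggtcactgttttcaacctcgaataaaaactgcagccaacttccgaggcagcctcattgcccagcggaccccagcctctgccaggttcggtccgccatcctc
GDPD4 (chr11:77301637-77301936, minus strand): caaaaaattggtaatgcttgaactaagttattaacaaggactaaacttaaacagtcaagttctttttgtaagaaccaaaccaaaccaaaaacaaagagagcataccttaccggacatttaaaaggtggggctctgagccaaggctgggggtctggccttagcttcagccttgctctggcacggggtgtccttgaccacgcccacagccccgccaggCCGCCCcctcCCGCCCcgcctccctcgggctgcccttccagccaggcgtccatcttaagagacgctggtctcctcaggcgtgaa
The IL10RA and SESN3 windows each held 1 GATA match and no GC box match, and were 50.3% and 45% GC. The CD44 and GDPD4 windows each held 2 GC box matches and no GATA match, and were 63.3% and 53.7% GC. Of 35116 RefSeq promoter windows of the same length, 45% held the GC box letters and 10.3% the GATA letters, and of the 1893 windows of chromosome 11, 42.0% and 11.1% did. The same letters did not follow direction in other genes of these bins: the windows of MS4A2 and MS4A3, which were lower, held 1 GATA match and no GC box match each, and those of DUSP8, GAB2, RTN3 and MALAT1, which were higher, held 4, 5, 2 and 5 GC box matches and no GATA match. Such matches describe letters and are not evidence of binding. RefSeq windows were found for 29 of the 32 genes of the bins described below.

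Most of the chromosome was a little lower in IRAIN cells. Of the 154 bins, 120 (77.9%) had a lower mean CPM in the IRAIN libraries than in the control libraries, and the median log2 ratio was -0.15, a 0.899-fold level. The middle 50% of bins lay between -0.27 and -0.03. On the other chromosomes, the median of 3229 bins was 0.01, 48.5% lay below 0 and the middle 50% lay between -0.10 and 0.13. The width of the middle 50% was 0.235 on chromosome 11 and 0.236 on the others, and 123 of the 154 bins lay within 0.25 of the chromosome's median.

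**Figure D1:**
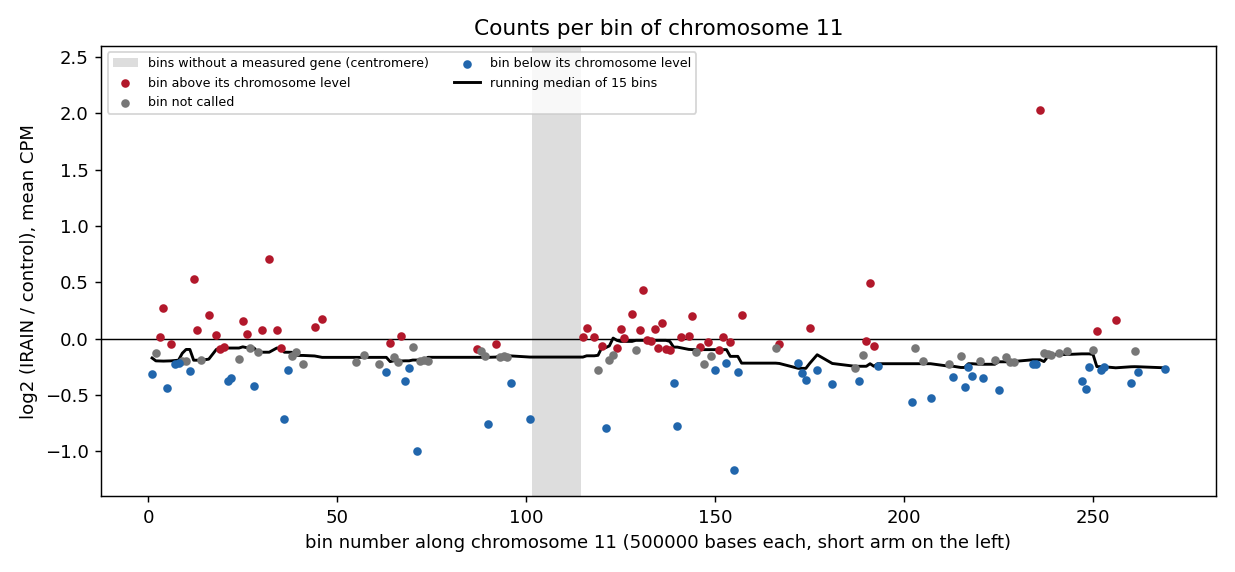
Log2 ratio of the mean CPM of IRAIN over control libraries for the 154 bins of chromosome 11, by bin number, with the running median of 15 bins as a line. Point colours give the call against the chromosome's own level, and the grey band marks bins 102 to 114, which hold no measured gene. Most points lie a little below 0 along both arms, while single bins such as 236 (2.03) and 155 (-1.17) stand far off.

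Each library showed the same displacement. Each library was set against the mean of the control libraries, and a control library against the mean of the other controls. The median bin stood at -0.17, -0.15 and -0.15 on the log2 scale in the 3 IRAIN libraries, and at 0.0017, -0.0070 and 0.0054 in the control libraries. Of the 154 bins, 119, 121 and 122 lay below this mean in the IRAIN libraries, against 73, 87 and 71 in the control libraries. The SD over bins of the log2 ratio of a pair of libraries was 0.0603 to 0.0938 within a group and 0.291 to 0.326 between groups. The CPM of the groups did not overlap in 106 bins that were lower and 19 that were higher in IRAIN libraries, where 33.1% of all bins were lower and 33.2% higher in this sense, or 66.2% in all. In edgeR's quasi-likelihood fit on the bins of all chromosomes, 105 bins of chromosome 11 were called lower and 19 higher at an adjusted p of 0.05, against 31.1% and 31.8% of all bins, or 62.9% in all. These counts rest on the contrast that chose the chromosome and are given as a description.

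By chromosome, the bins of chromosome 11 had the lowest median of 23 chromosomes. Chromosome 21 came next at -0.10 over 43 bins and chromosome 18 at -0.03 over 75 bins, and chromosome 8 had the highest median at 0.07 over 152 bins. The quartiles of neighbouring chromosomes in this order overlap, -0.27 to -0.03 for chromosome 11 and -0.23 to 0.07 for chromosome 21.

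**Figure D2:**
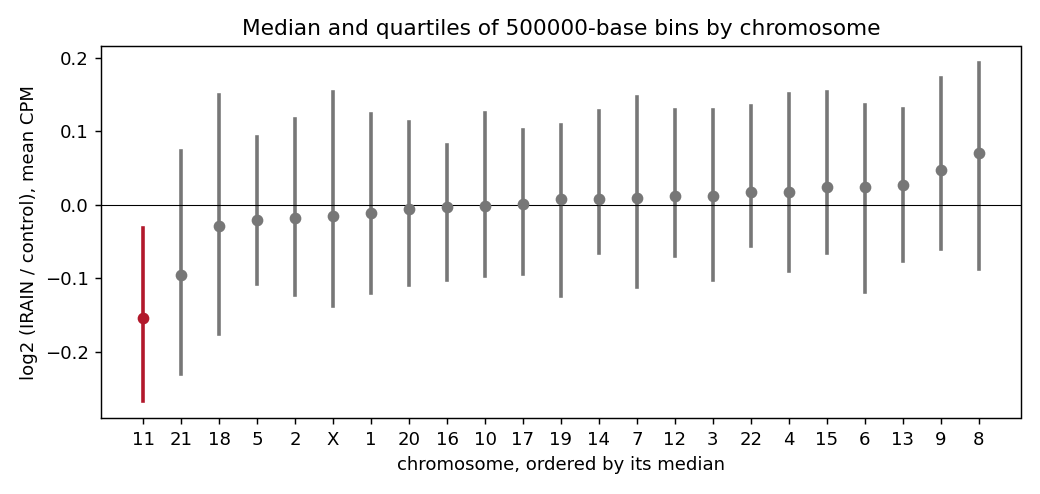
Median (point) and quartiles (line) of the log2 ratio of IRAIN over control CPM over the bins of each chromosome, ordered by the median, with chromosome 11 in red. Its upper quartile (-0.03) lies below the medians of all chromosomes but 21.

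The displacement was found among genes of low and high level alike. Of 1025 tested genes of chromosome 11, 369 were called lower and 124 higher, which is 36% and 12.1%, against 18.9% and 20.3% of all 18380 tested genes, or 39.3% in all. Their median log2 fold change was -0.13, against 0.01 for the 17355 tested genes elsewhere. Divided by level into 3 equal groups, low to high, these genes had medians of -0.12, -0.13 and -0.15. By type, the median was -0.13 over 751 protein-coding genes, -0.07 over 69 antisense genes, -0.14 over 57 processed pseudogenes and -0.10 over 41 long intergenic RNA genes. Among the 81 bins with at least 5 tested genes, 65 had a median gene below 0, 10 had every gene below 0, and 1 had every gene above 0. In 42 of these 81 bins, some genes were called higher and others lower, so that neighbours within a bin often went opposite ways. Such counts were not made for the bins of other chromosomes.

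The 10 crowded bins with every tested gene below 0 lay on both arms. These bins are singled out for that direction, which is therefore a description. They included bin 217 (108000001 to 108500000), whose most abundant gene is ATM, the kinase that signals DNA double-strand breaks. This bin had 732, 738 and 756 CPM in the IRAIN libraries, against 901, 879 and 878 CPM in the control libraries, and 5 of its 6 tested genes were called lower. The groups did not overlap there. Over all tested genes, 36% were called lower on chromosome 11 and 18.9% in the whole table. The 10 bins also included bin 237 (118000001 to 118500000), led by KMT2A, a histone methyltransferase often rearranged in leukaemia. It had 660, 700 and 691 CPM in the IRAIN libraries, against 747, 742 and 750 CPM in the control libraries. At the far end, bin 269 (134000001 to 134500000), led by the condensin subunit gene NCAPD3, had 428, 429 and 430 CPM in the IRAIN libraries, against 512, 509 and 528 CPM in the control libraries, with 9 of 9 tested genes below 0.

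The sum over the chromosome went the other way from its bins. Chromosome 11 held 7.87%, 7.91% and 7.92% of all counts in the IRAIN libraries, against 7.77%, 7.78% and 7.75% in the control libraries, so its share was higher by 0.133 percentage points. A single gene decided this direction. MALAT1, an abundant nuclear long noncoding RNA, held 29.28% of the counts of the chromosome and was higher in IRAIN libraries. Without MALAT1, the share was 5.30%, 5.29% and 5.31% in the IRAIN libraries, against 5.79%, 5.79% and 5.81% in the control libraries. The description of the chromosome as lower therefore holds for its bins and genes and not for its summed counts.

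Both arms were displaced alike in their medians. The arms were divided at the 13 bins from 50500001 to 57000000, which hold no measured gene and include the centromere. The 62 bins of the short arm had a median log2 ratio of -0.16 with 48 below 0, and the 92 bins of the long arm had -0.15 with 72 below 0. The summed counts of the arms differed more. MALAT1 lies on the long arm, so the ratio is given with and without it. The ratio of short-arm to long-arm counts was 0.251, 0.248 and 0.249 in the IRAIN libraries, against 0.305, 0.302 and 0.306 in the control libraries. All IRAIN values lay below all control values, and a two-sided exact permutation test gave p = 0.1, the smallest that 3 libraries against 3 allow. Without MALAT1, the ratio was 0.424, 0.423 and 0.424 in the IRAIN libraries, against 0.458, 0.452 and 0.454 in the control libraries, again with p = 0.1 in the exact test. Without the most abundant gene of every bin, it was 0.356, 0.359 and 0.363 in the IRAIN libraries, against 0.415, 0.409 and 0.410 in the control libraries (exact p = 0.1).

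Along the chromosome, the displacement was least in the middle. In windows of 10 Mb (megabases), the median log2 ratio of bins was -0.11 and -0.12 in the first pair of windows, then -0.15, -0.20 and -0.15 up to the end of the short arm. It was -0.03, -0.08 and -0.09 in the windows from 50 to 80 Mb. From there to the end of the long arm it was -0.22, -0.19, -0.26, -0.20, -0.25 and -0.27, the last over 3 bins. The 41 bins from 50 to 80 Mb, a stretch chosen after these values were seen, had a median of -0.08 with 26 below 0, and the other 113 bins had -0.19 with 94 below 0. Set against the control mean, the median of these 41 bins was -0.08, -0.07 and -0.08 in the IRAIN libraries, and that of the other bins was -0.20, -0.17 and -0.18. The stretch differed in composition too, with a median transcript GC content of 54.2%, against 46.0% in the other bins. After a correction for transcript GC content and length that was fitted on the other chromosomes, the medians were -0.09 inside and -0.19 outside the stretch. The ratio hardly followed GC content on those chromosomes (Spearman correlation 0.04, against 0.21 on chromosome 11), so this correction could move little. The part of composition in the difference was not tested. Of the tested genes inside the stretch, 109 of 389 were called lower and 68 higher, against 260 lower and 56 higher of 636 outside it. The shares called lower were 28% inside and 40.9% outside. Over all 18380 tested genes, 18.9% were called lower and 20.3% higher.

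**Figure D3:**
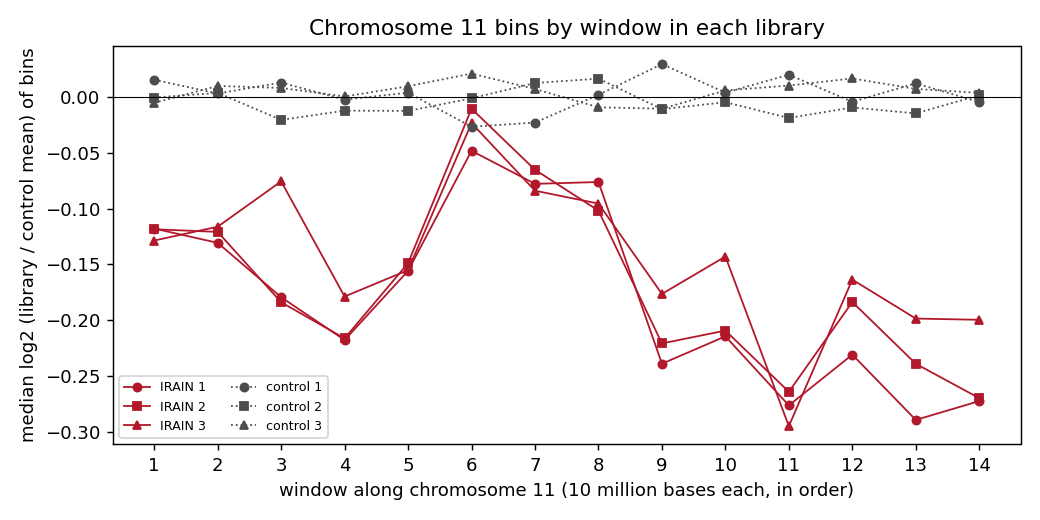
Median over bins of the log2 ratio of each library to the control mean, for 14 consecutive windows of 10 Mb along chromosome 11 (window 1 is the tip of the short arm). In window 6 the IRAIN libraries (filled, red) reach -0.05 to -0.01 and the control libraries (dotted, grey) -0.03 to 0.02. In every other window all IRAIN libraries lie below all control libraries.

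In the window from 100 to 110 Mb, all 11 bins of at least 600 counts lay below 0, between -0.56 and -0.09, and 21 of its 32 tested genes were called lower and 0 higher by edgeR. Over all tested genes of the chromosome, 36% were called lower and 12.1% higher, and over all 18380 tested genes 18.9% and 20.3%. Thinner bins of this window lay on both sides of 0, such as bin 219 (28 counts, 1.02) and bin 210 (164 counts, -3.10). Bin 207 (103000001 to 103500000), led by DCUN1D5, had 113, 113 and 115 CPM in the IRAIN libraries, against 167, 163 and 162 CPM in the control libraries. Bin 203 (101000001 to 101500000), led by the progesterone receptor gene PGR, was the nearest to 0 at -0.09, with 59.995, 58.4 and 57.9 CPM in the IRAIN libraries, against 59.4, 60.3 and 67.5 CPM in the control libraries, which overlap. Such windows were not found on chromosome 11 alone. Among 287 windows of this length with at least 5 bins in the genome, the window from 100 to 110 Mb ranked 4th from the lowest, below it a window of chromosome 6 (140 to 150 Mb, -0.35) and a pair of chromosome 18 (-0.32 and -0.31). Of 274 such windows on other chromosomes, 11 lay below -0.15.

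Neighbouring bins resembled each other only weakly. The Spearman correlation between a bin and the next was 0.17 over 114 adjacent pairs on chromosome 11 and 0.10 over 2336 adjacent pairs on the other chromosomes. Across the 154 bins, the log2 ratio had a Spearman correlation of 0.21 with the GC content of the bin's transcripts, 0.16 with its counts and 0.19 with its number of genes, and of 0.04, -0.02 and -0.01 across the bins of other chromosomes. These points share their libraries, and the values are descriptions. The GC and length correction moved the median of chromosome 11 to -0.17 and that of the other chromosomes to -0.01.

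**Figure D4:**
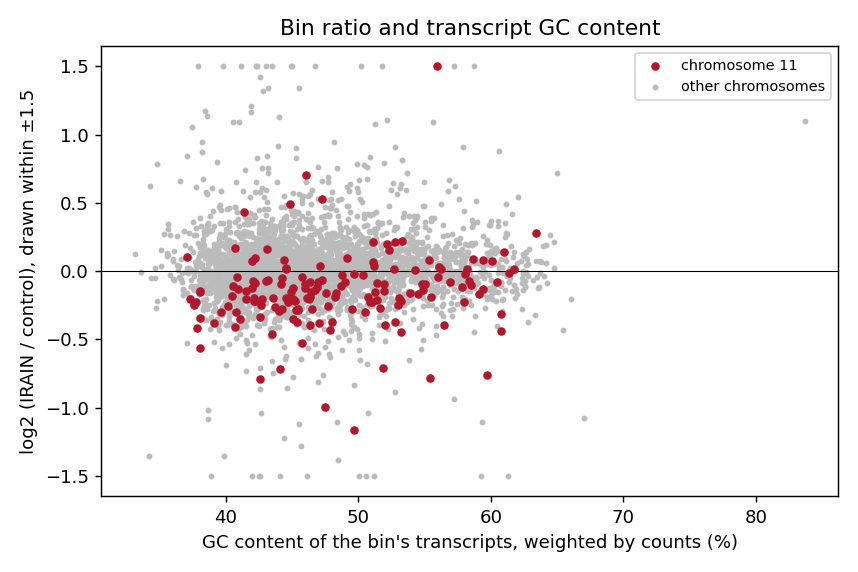
Log2 ratio of IRAIN over control CPM against the GC content of the bin's transcripts, weighted by counts, for bins of chromosome 11 (red) and of other chromosomes (grey), with ratios beyond 1.5 in size drawn at that limit. Of the red points, 116 of 146 up to 60% GC lie below 0, and 4 of 8 above it, and the Spearman correlation is 0.21 among them.

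Single bins stood out from this background in both directions. When each bin was tested against the level of its own chromosome (-0.15 for chromosome 11), edgeR's quasi-likelihood test called 55 bins higher and 49 lower of 154, or 67.5%. Over all bins of the genome, 31.6% were called higher and 31.1% lower than their own chromosome, or 62.8% in all, so this share is near the background. The median size of the called departures was 0.18 on the log2 scale, and 9 bins departed 1.5-fold or more, 4 up and 5 down. Of the 105 bins called lower over all chromosomes, 49 were also below their own chromosome's level, 43 were not called against it, and 13 were above it. With the chromosome's level taken as its plain sum of counts, which MALAT1 raises, 13 bins were called higher and 117 lower.

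The bins below were picked for the size of their ratio or for their counts, and their departures describe them. Those above their chromosome's level were led by bin 236 (117500001 to 118000000), whose main gene is IL10RA, the ligand-binding chain of the interleukin-10 receptor. The bin had 26.5, 27.2 and 28.4 CPM in the IRAIN libraries, against 6.24, 7.27 and 6.61 CPM in the control libraries. The groups did not overlap, and the bin's log2 departure was 2.18 ± 0.095 (SE; edgeR adjusted p = 4.1e-17). Bin 32 (15500001 to 16000000) held 1 counted gene, SOX6, a transcription factor that represses fetal globin genes in red cell precursors. It had 51.2, 53.7 and 52.9 CPM in the IRAIN libraries, against 32.3, 32.5 and 31.9 CPM in the control libraries, a departure of 0.86 ± 0.055 (SE; edgeR adjusted p = 2.4e-13). Bin 12 (5500001 to 6000000) held the TRIM5 and TRIM6 genes, of which TRIM5 encodes a retrovirus restriction factor. Its levels were 58.7, 61.4 and 61.5 CPM in the IRAIN libraries, against 43.0, 38.8 and 43.8 CPM in the control libraries, and all 14 of its genes had a higher mean in IRAIN libraries. TRIM5 itself had 37.7, 39.2 and 38.6 CPM in the IRAIN libraries, against 30.3, 26.7 and 31.1 CPM in the control libraries.

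Bin 191 (95000001 to 95500000) was carried by SESN3, a stress-induced sestrin that restrains the growth kinase mTORC1. The bin had 143, 156 and 147 CPM in the IRAIN libraries, against 102, 107 and 109 CPM in the control libraries. SESN3 alone had 66.5, 80.1 and 75.6 CPM in the IRAIN libraries, against 25.6, 23.5 and 27.3 CPM in the control libraries, which is a larger difference than that of the bin. Of the bin's 5 genes, 4 had a higher and 1 a lower mean in IRAIN libraries. Bin 131 (65000001 to 65500000) held the most counts, 30396, 30968 and 30669 CPM in the IRAIN libraries, against 22987, 22924 and 22409 CPM in the control libraries. Of its genes, MALAT1 had 25991, 26626 and 26286 CPM in the IRAIN libraries, against 19648, 19663 and 19149 CPM in the control libraries. NEAT1, the RNA scaffold of nuclear paraspeckles, had 3474, 3428 and 3503 CPM in the IRAIN libraries, against 2403, 2317 and 2324 CPM in the control libraries. The genes of this bin did not share a direction. Of its 30 genes, 15 had a higher mean in IRAIN libraries, MALAT1 and NEAT1 among them, and 15 had a lower one.

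The remaining high bins are described by their gene of largest CPM difference. In bin 4 (1500001 to 2000000), DUSP8, a phosphatase of MAP kinases, had 16.7, 17.5 and 16.9 CPM in the IRAIN libraries, against 8.15, 5.97 and 7.11 CPM in the control libraries, while CTSD, a lysosomal protease, overlapped between the groups. H19 in the same bin was also called higher, at 2.01, 0.86 and 1.74 CPM in the IRAIN libraries, against 0.33, 0.16 and 0.25 CPM in the control libraries. Bin 128 (63500001 to 64000000) held RTN3, a reticulon that shapes the endoplasmic reticulum, with 279, 289 and 278 CPM in the IRAIN libraries, against 214, 207 and 219 CPM in the control libraries. Bin 157 (78000001 to 78500000) held GAB2, an adaptor protein that BCR-ABL1 signals through, with 356, 377 and 372 CPM in the IRAIN libraries, against 251, 256 and 250 CPM in the control libraries. Around GAB2, 9 of the bin's 14 genes had a lower mean in IRAIN libraries.

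**Figure D5:**
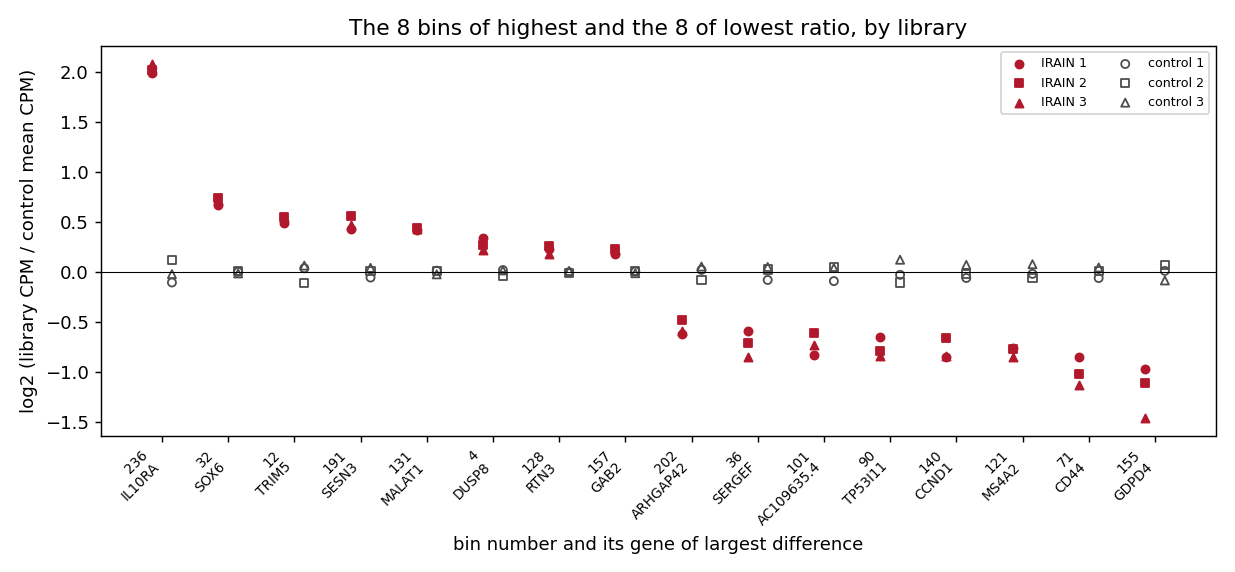
Log2 ratio of each library's CPM to the control mean for the 8 bins of highest (left) and the 8 of lowest (right) ratio, labelled with the bin number and its gene of largest difference. IRAIN libraries (filled) are left of the control libraries (open) in each bin and do not overlap them in any of the 16 bins.

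The lowest bin was 155 (77000001 to 77500000), which had 6.48, 5.87 and 4.62 CPM in the IRAIN libraries, against 12.8, 13.32 and 12.0 CPM in the control libraries. Its departure from the chromosome was -1.02 ± 0.13 (SE; edgeR adjusted p = 1.1e-07). GDPD4, a member of the glycerophosphodiester phosphodiesterase family, made all of it, with 1.14, 0.783 and 0.833 CPM in the IRAIN libraries, against 7.90, 9.04 and 8.01 CPM in the control libraries, and 3 of the bin's 5 genes had a higher mean in IRAIN libraries. Bin 71 (35000001 to 35500000) followed CD44, the cell surface receptor for hyaluronan. It had 7.53, 6.74 and 6.21 CPM in the IRAIN libraries, against 13.05, 13.73 and 14.05 CPM in the control libraries. These bins are thin, with 674 and 751 counts over the 6 libraries.

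Bin 121 (60000001 to 60500000) holds a cluster of MS4A genes, which encode membrane proteins of blood cells, and all 6 of its genes had a lower mean in IRAIN libraries. It had 26.2, 26.0 and 24.7 CPM in the IRAIN libraries, against 43.8, 42.5 and 46.8 CPM in the control libraries, a departure of -0.64 ± 0.064 (SE; edgeR adjusted p = 1.6e-09). MS4A3, found in granulocyte and monocyte precursors, had 19.7, 17.6 and 18.6 CPM in the IRAIN libraries, against 20.1, 24.7 and 26.7 CPM in the control libraries. MS4A2, the beta chain of the high-affinity IgE receptor, was at 1.05, 1.64 and 1.21 CPM in the IRAIN libraries, against 8.48, 5.97 and 6.61 CPM in the control libraries. MS4A4A stood at 2.10, 3.29 and 2.05 CPM in the IRAIN libraries, against 7.90, 7.11 and 7.93 CPM in the control libraries. In this cluster the difference was spread over neighbours rather than held by 1 gene.

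Bin 140 (69500001 to 70000000) held CCND1, the cyclin that carries cells out of G1, and LTO1. The bin had 20.2, 23.2 and 20.5 CPM in the IRAIN libraries, against 35.1, 36.2 and 38.4 CPM in the control libraries. CCND1 had 3.24, 3.29 and 3.18 CPM in the IRAIN libraries, against 13.9, 15.7 and 17.7 CPM in the control libraries, whereas LTO1, which was not called, had 17.0, 19.9 and 17.3 CPM in the IRAIN libraries, against 21.2, 20.4 and 20.7 CPM in the control libraries. The next bins were mixed. MYEOV in bin 139 had 40.6, 41.0 and 40.8 CPM in the IRAIN libraries, against 56.4, 57.6 and 60.4 CPM in the control libraries, and bin 141, with the actin-binding gene CTTN, overlapped between the groups (log2 ratio 0.01). Of the 6 tested genes of the CCND1 region, 2 were called lower and 0 higher by edgeR. Over all tested genes of the chromosome, 36% were called lower and 12.1% higher, so this region is near the chromosome's share of lower genes.

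The other low bins were smaller. In bin 90 (44500001 to 45000000), TP53I11 was at 0.350, 0.313 and 0.152 CPM in the IRAIN libraries, against 3.08, 1.86 and 2.73 CPM in the control libraries, and CD82, a tetraspanin, at 6.31, 5.25 and 5.08 CPM in the IRAIN libraries, against 6.73, 7.51 and 7.11 CPM in the control libraries. In bin 36 (17500001 to 18000000), SERGEF had 16.9, 15.8 and 14.2 CPM in the IRAIN libraries, against 23.03, 26.24 and 25.6 CPM in the control libraries. In bin 202 (100500001 to 101000000), ARHGAP42, which encodes a GTPase-activating protein, had 34.9, 38.0 and 34.4 CPM in the IRAIN libraries, against 53.6, 49.8 and 55.0 CPM in the control libraries. Bin 101, next to the centromere, held 4 counted genes led by the pseudogene AC109635.4, with 6.57, 7.28 and 6.44 CPM in the IRAIN libraries, against 9.98, 10.7 and 11.2 CPM in the control libraries.

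Of the 8 bins with the most counts, which held 47.94% of the counts of the chromosome, bin 131 was higher, 2 overlapped between the groups and the other 5 were lower in IRAIN libraries. PICALM, a clathrin assembly protein gene, carried bin 172 (85500001 to 86000000), which had 1687, 1741 and 1795 CPM in the IRAIN libraries, against 2047, 2013 and 2026 CPM in the control libraries. Bin 1, at the tip of the short arm, had 865, 848 and 820 CPM in the IRAIN libraries, against 1047, 1061 and 1045 CPM in the control libraries. There IFITM3, an interferon-induced membrane protein gene, had 85.8, 87.8 and 82.2 CPM in the IRAIN libraries, against 126, 130 and 126 CPM in the control libraries. RNH1, the ribonuclease inhibitor, had 113, 111 and 106 CPM in the IRAIN libraries, against 147, 150 and 142 CPM in the control libraries. Bin 239 (119000001 to 119500000) held HYOU1, a chaperone of the endoplasmic reticulum, and H2AFX, the histone marked at DNA breaks. Its levels were 1775, 1752 and 1728 CPM in the IRAIN libraries, against 1916, 1939 and 1939 CPM in the control libraries, and H2AFX had 182, 178 and 170 CPM in the IRAIN libraries, against 232, 245 and 229 CPM in the control libraries.

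Bins 126 and 132 did not share the displacement. Bin 126 (62500001 to 63000000), with GANAB, a glycoprotein-trimming glucosidase, had 1701, 1649 and 1640 CPM in the IRAIN libraries, against 1628, 1672 and 1673 CPM in the control libraries. Bin 132 (65500001 to 66000000), with CFL1, the actin-severing cofilin, had 1236, 1205 and 1149 CPM in the IRAIN libraries, against 1180, 1227 and 1222 CPM in the control libraries. In both, the groups overlapped, and in both the bin was above its chromosome's level, by 0.16 ± 0.020 and 0.14 ± 0.024 (SE; edgeR adjusted p = 1.8e-07 and 1.5e-05).

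Gene groups of the chromosome mostly followed its direction, to differing degrees. Beside the counts of these lists, 36% of all tested genes of the chromosome were called lower and 12.1% higher. In the whole table these shares were 18.9% and 20.3%. The calls do not subtract the chromosome's own level (-0.15 over bins), which is part of each count. Of 11 tested surface protein genes, 10 were called lower and 0 higher by edgeR, with a median log2 fold change of -0.41. Among them, MCAM, an adhesion molecule, had 53.0, 52.5 and 53.8 CPM in the IRAIN libraries, against 79.6, 74.1 and 82.7 CPM in the control libraries. CD59, which shields cells from complement, had 104, 106 and 109 CPM in the IRAIN libraries, against 142, 140 and 141 CPM in the control libraries. The genes called lower include THY1, at 0.788 to 2.34 CPM, and CD3D, at 1.21 to 2.64 CPM over all libraries. In the library with counts by strand, 86.4% of the THY1 counts were opposite to the annotated gene. Of 13 DNA damage response genes, 9 were called lower and 0 higher, and all 13 had a negative estimate (median -0.17). By strand, 53.0% of the counts of RNASEH2C, which was called lower, were opposite to the annotated gene. For RAD9A, which was not called, this was 49.0%. ATM had 334, 326 and 339 CPM in the IRAIN libraries, against 412, 399 and 395 CPM in the control libraries. Of 10 genes listed under proteasome and chaperones, 7 were called lower and 3 higher (median -0.23), and the 3 higher ones were PRDX5, DNAJC4 and SERPINH1. HSPA8, the constitutive HSP70 chaperone, had 792, 792 and 823 CPM in the IRAIN libraries, against 1045, 1035 and 1057 CPM in the control libraries, whereas PRDX5, an antioxidant enzyme gene that belongs to neither class, had 99.5, 93.0 and 83.6 CPM in the IRAIN libraries, against 59.7, 69.4 and 58.7 CPM in the control libraries.

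Of 22 genes of mitochondrial proteins, 12 were called lower and 3 higher (median -0.14). SDHD, a subunit of respiratory complex II, had 50.6, 55.7 and 53.2 CPM in the IRAIN libraries, against 72.0, 74.0 and 78.3 CPM in the control libraries. PC, the pyruvate carboxylase gene, had 62.3, 62.7 and 62.7 CPM in the IRAIN libraries, against 46.4, 50.8 and 46.8 CPM in the control libraries. Of 11 imprinted-region genes, 6 were called lower and 1 higher (median -0.24). The higher one was H19, a noncoding RNA, with 23, 11 and 23 counts in the IRAIN libraries, against 4, 2 and 3 in the control libraries. LDHA, which makes lactate, had 438, 458 and 448 CPM in the IRAIN libraries, against 573, 540 and 564 CPM in the control libraries.

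Of 5 blood regulators tested, 3 were called lower and 1 higher. SPI1, the myeloid transcription factor PU.1, was the higher one, with 23.9, 28.0 and 24.4 CPM in the IRAIN libraries, against 14.97, 17.12 and 16.8 CPM in the control libraries. WT1 had 32.5, 31.6 and 28.4 CPM in the IRAIN libraries, against 39.99, 38.03 and 39.66 CPM in the control libraries. FTH1, the ferritin heavy chain that stores iron, had 92.0, 107 and 96.8 CPM in the IRAIN libraries, against 64.1, 58.3 and 54.8 CPM in the control libraries. Of 7 tested genes of a list of ribosomal and elongation genes, FAU and RPL27A were called higher, and RPS3 and RPS6KB2 lower (median 0.05). RPS6KB2 encodes a kinase of a ribosomal protein and is no ribosomal protein gene itself. RPS3 was at 1306, 1253 and 1227 CPM in the IRAIN libraries, against 1334, 1388 and 1371 CPM in the control libraries. Of the remaining lists, 2 of 3 IFITM genes, 1 of 3 caspase and inhibitor of apoptosis genes and 1 of 2 lactate dehydrogenase genes were called lower, and 1 of 2 iron and heme genes, FTH1, was called higher. Of the secreted mucin genes, 1 was tested and not called, and 0 apolipoprotein and 0 matrix metalloproteinase genes had enough counts to be tested. EEF1G, FLI1 and IGF2 are listed at 0 in all 6 libraries. These zeros were not checked in the reads, so they do not show that the RNA is absent. These lists were chosen with earlier results of these data known, and their counts are set beside 36% lower and 12.1% higher for all tested genes of the chromosome.

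The bin of the beta-globin genes (bin 11, 5000001 to 5500000) had 664, 672 and 702 CPM in the IRAIN libraries, against 858, 808 and 818 CPM in the control libraries. Of 5 tested genes of the locus, 4 were called lower and 0 higher, and fetal globin HBG1 had 81.1, 64.6 and 74.8 CPM in the IRAIN libraries, against 91.8, 97.3 and 101 CPM in the control libraries. Its near-identical copy HBG2 makes the split of reads between the pair uncertain. The most abundant entry of the bin was the olfactory receptor gene OR51B5, whose annotation overlaps the globin transcripts. Strand was not used in the deposited counts. In the 1 library with counts by strand, the median bin had 11.9% of its counts opposite to the annotated gene, and 1 bin, 249, led by OR8D1, had over 50% (52.8%). Of 50 tested olfactory receptor genes and pseudogenes, 29 had over 50% of their counts on the strand opposite to the annotation, 17 were called lower and 3 higher. These are 34% and 6%, beside 36% and 12.1% of all tested genes of the chromosome.

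The edge of the profile was set by depth. Just inside 600 counts lay bin 90 (635 counts), bin 155 (674) and bin 256 (724), with log2 ratios of -0.76, -1.17 and 0.16. Just outside lay bin 54, with MUC15 (367 counts, 0.96), and bin 99 (246 counts, -0.42). Among the 26 thin bins was bin 210, whose only counted gene, CASP4, an inflammatory caspase, had 9, 4 and 4 counts in the IRAIN libraries, against 42, 49 and 56 in the control libraries. Of the 91 bins with no gene of at least 10 counts, 76 held an annotated gene and 15 held none, and 33 had any count. In 107 of the 154 profile bins, the most abundant gene held over 50% of the counts, so many bins are measurements of 1 gene.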

How the data were processed

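RNA of 6 K562 libraries was sequenced, 3 with IRAIN over-expression and 3 controls. Per the labels' protocols, total RNA was made into TruSeq libraries. The submitters' processing notes name STAR and the build hg38 (GRCh38); their versions were not given in the sources used. The authors deposited raw counts per gene, with strand ignored, for 58440 identifiers, and a second table with counts of 1 library by strand, equal to IRAIN library 2 at all 58440. Control columns carry the name vector and were matched to the group, not to single samples. Of the identifiers, 58275 had GENCODE release 29 coordinates, 56992 of all of them in the same version.

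Counts were summed in bins by each gene's annotated start, the lower coordinate whatever the strand. CPM used TMM factors of the whole table. Genes (filterByExpr) and bins (at least 600 counts) were tested two-sided with the quasi-likelihood test of edgeR 4.0.16 (R 4.3.3), adjusted by Benjamini-Hochberg over all genes or bins at 0.05. The test against the own chromosome used TMM over that chromosome's bins as offset. Steps were tested on simulated data. Pairs of libraries within a group differed more than sampling noise (chi-square per degree of freedom 1.36 to 2.31), so no pair was treated as 1 library deposited again; this cannot tell separate cultures from technical repeats. Reads are not independent molecules.

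The bins described singly are the 8 highest, the 8 lowest and the 8 with the most counts, with their most abundant and most different gene, and up to 2 risen and 2 fallen genes per list. Bins 203, 207, 217, 237 and 269, bin 11 and genes beside the named ones were added after their values were seen. Members and lists were chosen with earlier results of these data known. Alternatives were scaling, filters, bin size and offset, gene types, DESeq2 1.42.0, a replicate block and leaving out each library; the GC and length correction and the removal of MALAT1 were added after seeing the data. Some marker genes are not reported here.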

Additional observations from a re-analysis of the deposited data

How the results depend on the processing

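The share of counts on chromosome 11, higher by 0.133 percentage points in IRAIN libraries, reversed to -0.494 without MALAT1, -0.173 without the most abundant gene of each bin and -0.585 with protein-coding genes alone. Each of these settings leaves MALAT1 out, and the last pair leaves out other genes too. The median log2 ratio of bins, -0.15, became -0.188 by plain totals, -0.136 without each bin's most abundant gene and -0.168 with the GC and length correction, and the median of genes became -0.113 with no filter; the cause was not tested. Bins of 1000000 bases, which are fewer, gave 78 below 0 and 68 called against their chromosome. DESeq2 called 373 genes of chromosome 11, 113 bins, and 94 bins against their chromosome, where edgeR called 493, 124 and 104. The fit with a replicate block by column number called 482 genes, 123 bins and 102 bins against their chromosome, with a gene median of -0.132. Same-numbered libraries did not deviate together (correlations -0.042, -0.0056 and -0.013). With 3 libraries per group, this cannot tell whether they share a culture or batch. Leaving out 1 library at a time gave bin medians of -0.156 to -0.145, 119 to 123 bins below 0, 114 to 124 called bins, 95 to 106 against the chromosome, 433 to 460 called genes, gene medians of -0.141 to -0.128, shares higher by 0.122 to 0.148 points and arm ratio differences of -0.0559 to -0.0539 (exact p = 0.1 is the smallest possible with all 6 libraries). Depth limits the bins near 600 counts, where single genes decide the ratio.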
